A study of Mus musculus with 8 samples.

Results

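The comparison set matrix made in TCM against matrix made in SFM, in both cases after the matrix-producing cells had received siFN, the siRNA against fibronectin. It takes in 4 of the 8 libraries of the series, chosen by their labels: SFM siFN, SFM siKLF4-siFN, TCM siFN and TCM siKLF4-siFN. All 4 hold RNA from the mouse melanoma line B16-F10 after 24 hours on matrix from which smooth muscle cells had been lysed away. The smooth muscle cells had been given siFN, or siKLF4 and siFN together, for 72 hours and then TCM or SFM for another 72 hours. The series title speaks of B16-F10 tumor conditioned media, read here as TCM, and the labels do not spell out SFM. Each condition is 1 library, so the matched pairs are TCM siFN with SFM siFN and TCM siKLF4-siFN with SFM siKLF4-siFN, and libraries that differ in siKLF4 stand in for replicates. No label names separate cultures of a condition. P-values therefore measure the spread left over all 8 libraries of the series after medium, siFN, their interaction and siKLF4 are fitted. That spread is how far the siKLF4 difference varies between combinations of medium and siFN. It may be technical or an effect of treatment. The siRNA acted in the smooth muscle cells, and the knockdown cannot be checked in melanoma RNA.

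Fibronectin is a matrix glycoprotein that cells bind through integrins, and signals from such adhesion help to set whether a cell enters division. Genes of DNA replication are switched on by E2F factors before S phase. Genes of mitosis are switched on later, through promoter elements such as CCAAT boxes, bound by NF-Y, and cell cycle homology regions. Cells short of amino acids or with misfolded protein in the endoplasmic reticulum use another programme, in which the factor ATF4 raises genes of amino acid uptake, amino acid synthesis and tRNA charging.

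With siFN, melanoma cells on TCM matrix had higher levels of genes of cell division than cells on SFM matrix, and lower levels of 9 of 17 tested genes of amino acid supply. FPKM, the fragments counted per unit of gene length and of library size, was compared as log2(FPKM + 1), which understates the change of low genes. The test took in 6861 genes whose FPKM averaged 1 or more in these 4 libraries. limma called 561 higher in TCM (8.18%) and 615 lower (8.96%) at an adjusted p of 0.05. The median difference of the called genes was 0.88 for those higher and -0.71 for those lower. All 1176 called genes (17.1% of those tested) moved the same way in both matched pairs, as did 74.9% of all genes tested (35.3% higher in both, 39.6% lower in both). A difference of at least 1 in both pairs was found for 137 genes higher in TCM (2.0%) and 66 lower (0.962%), and the test called 132 and 65 of these. Protein-coding genes made up 98 of the 137 and 36 of the 66, and pseudogenes, whose reads can be shared with near-identical copies, 31 and 24.

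The calls rest on few libraries. The model was fitted to all 8 libraries, with 3 residual degrees of freedom. limma called 0 genes, with 1392 to 1777 at an unadjusted p under 0.05, when the SFM library with siKLF4 and siFN, or either of the TCM libraries with siFN, was left out, and 0 with 1514 unadjusted when the TCM siFN and TCM siKLF4-siFN libraries were averaged into 1. It called 2235 without SFM siFN and 539 to 837 when each of the 4 libraries that had no siFN was left out. Fitted to the 4 siFN libraries alone, with medium and siKLF4 as terms, limma called 548 higher and 447 lower, of which 824 were also among the 1176.

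**Figure D1:**
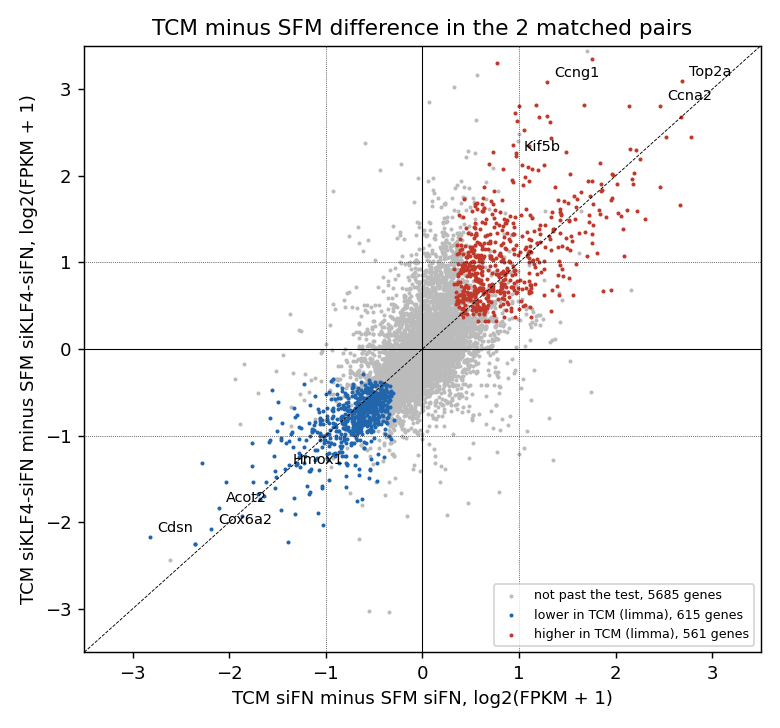
Each point is 1 of 6861 genes, with the TCM minus SFM difference in log2(FPKM + 1) of the siFN pair on the x axis and of the siKLF4-siFN pair on the y axis; red and blue mark the 561 and 615 genes that limma called, dotted lines a difference of 1, and the dashed line equal differences. The called genes lie in the upper right and lower left, and Ccng1 and Kif5b lie far above the dashed line.

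The pairs did not weigh equally. The differences had an SD over genes of 0.49 in the siFN pair and 0.64 in the siKLF4-siFN pair. TCM siFN and TCM siKLF4-siFN were the closest of the 28 pairs of libraries. In 1024 genes with a single annotated transcript, 22.7% differed between them beyond approximate counting noise, against 5% for 1 library counted again. They were therefore kept as separate libraries, and whether they are separate cultures was not tested. The SD of the difference over genes was 0.17 between them and 0.42 between SFM siFN and SFM siKLF4-siFN. Estimated depth was 12900000 reads in SFM siKLF4-siFN, 21100000 in SFM siFN, and 19500000 and 19800000 in the TCM libraries with siFN.

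Base composition moved with the comparison, mostly through SFM siKLF4-siFN. Over 5282 protein-coding genes, the Spearman correlation of the TCM minus SFM difference with the GC content of the transcript was -0.20 in the siFN pair and -0.56 in the siKLF4-siFN pair. Between SFM siKLF4-siFN and SFM siFN it was 0.62, and between TCM siKLF4-siFN and TCM siFN it was -0.14. These are descriptions across genes, which are not independent. In the fifth of genes with the lowest GC content (34.0% to 44.7%), 174 of 1057 genes were called higher in TCM and 16 lower. In the fifth with the highest (56.1% to 68.4%), 28 of 1056 were called higher and 163 lower. The part of base composition in the calls was not tested. When a smooth GC trend was taken out of each library, an alternative chosen after seeing the data, limma called 610 genes higher and 563 lower. Of the genes called before that have a GC value, 415 of 529 higher and 433 of 579 lower were called again. Values after this step are given below for called genes among those named that lost their call or moved by over 1.5 times. For genes that were not called they are given only in part. Counts of calls after it differed by 1 to 3 genes in many lists. Those for mitochondrial ribosomal proteins went from 6 to 9 lower and for lysosome and autophagy genes from 7 to 5 lower with 1 higher.

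**Figure D2:**
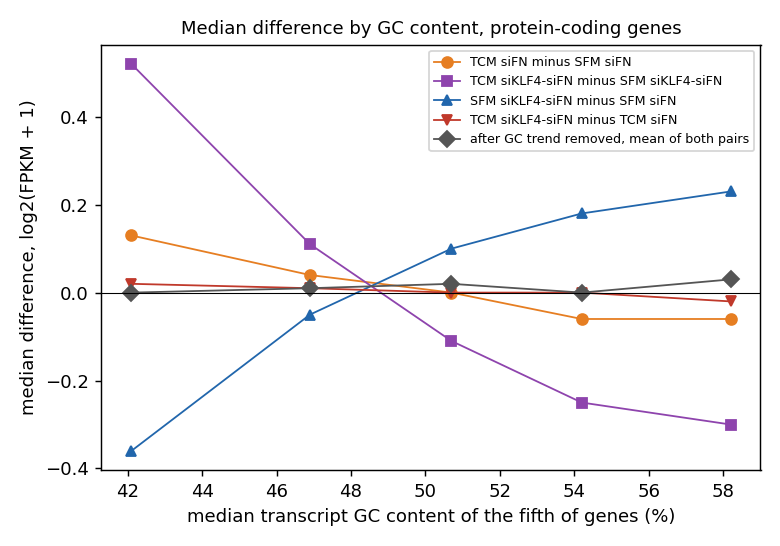
The y axis gives the median log2(FPKM + 1) difference and the x axis the median GC content of 5 equal groups of 5282 protein-coding genes, with 1 line per pair of libraries and a gray line for the mean of both TCM minus SFM pairs after the GC trend was removed. The siKLF4-siFN pair falls from 0.52 to -0.30 from low to high GC, and the siFN pair from 0.13 to -0.06.

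The cells kept the marks of their line in all 4 libraries. Of 10 melanoma markers 8 had a mean FPKM of 1 or more, and their sum was 476 to 740. Of 20 smooth muscle markers, 19 were in the table and 3 reached that level, with Mcam, also made by melanoma cells, the highest of them. The sum of the smooth muscle markers was 22 and 36.5 in the SFM libraries and 23.1 and 24.5 in the TCM libraries. Acta2, Myocd and Rgs5 were listed at 0 throughout. Fibroblast markers summed to 1.5 to 4.25, endothelial markers to 4.21 to 5.49 and leukocyte markers to 2.15 to 3.86, with 10 of 20, 8 of 16 and 11 of 19 at 0. A 0 need not mean low expression here, because all 37 mitochondrially encoded rows of the table were also 0. Of the markers of these other cell types limma called only Pcolce, an enhancer of collagen processing, which was higher in TCM (0.85). Pcolce reached the filter only through TCM. Without the GC trend the fibroblast marker Gsn, gelsolin, was called higher as well (0.43, adjusted p = 0.035). The part of other cells in the results was not tested. Klf4, the factor that siKLF4 targets in smooth muscle cells, had an FPKM of 8.62 and 5.79 in the SFM libraries and 8.13 and 7.80 in the TCM libraries. Fn1, the fibronectin gene of the melanoma cells themselves, stood at 3.12 and 3.10 against 2.54 and 2.56. Neither passed the test (adjusted p = 0.513 and 0.255).

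The promoters of the dividing-cell genes are shown first, since these genes moved together. Each window holds the 250 bases before the transcription start in RefSeq (build GRCm38.p6), written on the strand of the gene. For the mitosis genes Top2a (chr11:99024190-99024439, minus strand) and Ccnb1 (chr13:100786487-100786736, minus strand), capitals mark CCAAT and the cell cycle homology letters TTTGAA and TTCGAA, on either strand. The Ccnb1 window holds CCAAT and no match to the latter. In the window of Mcm5 (chr8:75109259-75109508, plus strand), a replication gene, they mark the E2F letters TTTCCCGC or TTTGGCGC, and in that of Pycr1 (chr11:120643749-120643998, minus strand), an enzyme of proline synthesis that was lower in TCM, the ATF4 letters TGATGNAAT. These 4 were picked after their values were seen.
Top2a: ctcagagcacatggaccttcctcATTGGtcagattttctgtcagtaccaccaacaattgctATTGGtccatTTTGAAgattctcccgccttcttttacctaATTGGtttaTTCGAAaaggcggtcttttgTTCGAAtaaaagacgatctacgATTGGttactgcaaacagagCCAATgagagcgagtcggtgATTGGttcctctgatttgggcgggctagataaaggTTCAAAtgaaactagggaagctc
Ccnb1: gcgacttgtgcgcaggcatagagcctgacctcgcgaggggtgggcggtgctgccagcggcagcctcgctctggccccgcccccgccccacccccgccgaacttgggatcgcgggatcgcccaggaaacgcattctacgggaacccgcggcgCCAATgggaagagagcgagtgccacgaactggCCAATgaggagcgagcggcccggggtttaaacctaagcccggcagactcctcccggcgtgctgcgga
Mcm5: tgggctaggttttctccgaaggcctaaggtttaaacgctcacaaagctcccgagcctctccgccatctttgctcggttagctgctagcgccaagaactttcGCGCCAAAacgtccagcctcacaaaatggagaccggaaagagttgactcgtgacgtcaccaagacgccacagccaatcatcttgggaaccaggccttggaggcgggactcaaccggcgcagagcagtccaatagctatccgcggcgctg
Pycr1: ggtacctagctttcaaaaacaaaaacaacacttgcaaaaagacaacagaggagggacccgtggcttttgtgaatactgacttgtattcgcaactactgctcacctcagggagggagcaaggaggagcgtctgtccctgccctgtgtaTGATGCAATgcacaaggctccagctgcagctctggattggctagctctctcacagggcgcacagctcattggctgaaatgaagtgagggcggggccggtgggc

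CCAAT was present in the windows of 26 of 30 mitosis genes with a RefSeq start (86.7%), against 37.5% of 27025 genes and 41.2% of the tested genes that have one. It was present in 54.4% of the genes called higher in TCM and 35.5% of those called lower. Lists that leaned lower in TCM also held it. It was in 16 of 18 windows of the endoplasmic reticulum chaperone list (88.9%) and in 61.1% of the ATF4 and CHOP list. Amino acid supply had 53.3%, and the NRF2 and synthetase lists 50% each. For S phase the share was 60% and for G1 regulators 45%. The cell cycle homology letters were in 15 of the 30 mitosis windows (50%) and in 19.6% of all. The E2F letters were in 5 of 30 S phase windows (16.7%) and in 1.51% of all. TGATGNAAT was in 2 of 18 windows of the ATF4 and CHOP stress list, 2 of 12 of the aminoacyl-tRNA synthetase list and 1 of 15 of the amino acid supply list, and in 0.91% of all. Among tested genes the cell cycle homology letters were in 13.3%, the E2F letters in 3.21% and TGATGNAAT in 0.416% of windows. A match is a description of letters only, and none of these motifs contains another.

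Mitosis genes were higher in TCM. Top2a, the topoisomerase that untangles chromosomes in dividing cells, on chromosome 11 (98992943 to 99024189), had an FPKM of 0.559 (SFM siFN) and 0.187 (SFM siKLF4-siFN), against 9.04 (TCM siFN) and 9.12 (TCM siKLF4-siFN). Values below follow this order, siFN before siKLF4-siFN. Both TCM libraries thus lay far above both SFM libraries, a separation without overlap that 32.9% of all genes tested showed in this direction. The ratio of mean FPKM was 24.3, and the difference 2.89 ± 0.36 (SE, log2, limma adjusted p = 0.0237). Ccnb1, the cyclin that carries cells into mitosis, stood at 0.962 and 0.965 on SFM matrix and at 8.33 and 8.02 on TCM matrix (2.22 ± 0.42). For Aurkb, a kinase of chromosome attachment, the SFM values were 0.616 and 0.792 and the TCM values 6.39 and 6.33. Birc5, its partner survivin, had 1.10 and 1.21 against 11.1 and 11.1. Each of these genes was low in both SFM libraries and nearly equal in the TCM libraries. Prc1, which bundles spindle microtubules, rose by 2.23, Ckap2 by 1.43 and Anln, which organises the cleavage furrow, by 1.27. Ccna2, the cyclin of S and G2 phase, rose by 2.64 and Cdca3, a cell division protein, by 2.68, with FPKM of 1.28 and 0.706 against 11.6 and 10.9 for the former.

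All 34 genes of the mitosis list were higher in TCM in both pairs, with a median difference of 1.34. Among all genes tested 35.3% were, and for this and later whole-list counts a share over untested genes was not taken. Of the 34 genes, 18 were tested and 18 called higher, but 15 of them reached the mean of 1 only through the TCM libraries. With genes chosen instead by their mean in the 4 libraries without siFN, 20 were tested and 20 called higher, with a median of 1.69. The median stayed between 1.34 and 2.76 over all alternatives. It was 1.76 in the siFN pair and 1.70 in the siKLF4-siFN pair, against 0.01 and -0.07 over all genes tested. After the GC trend was removed all 18 were called higher, with a median of 1.79. RNA of a culture does not tell apart more dividing cells from more of this RNA per dividing cell.

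S phase genes were also higher. Rrm2, a subunit of ribonucleotide reductase, which makes the building blocks of DNA, had an FPKM of 2.98 and 3.81 in the SFM libraries and of 26.3 and 25.3 in the TCM libraries (2.62 ± 0.39, adjusted p = 0.0242). Mcm3, part of the replicative helicase, had 1.02 and 1.36 against 8.13 and 7.86, and Mcm5, of the same ring, 0.844 and 1.39 against 5.87 and 5.93. The TCM libraries were higher without overlap for all 3. Fen1, the nuclease of Okazaki fragments, rose by 1.46 and Mcm10, a replication initiation factor, by 1.31. All 36 genes of the list were higher in both pairs, with a median of 0.82. Of 24 tested, 18 were called higher and none lower, 8 of the 24 having reached the filter only through TCM. With the filter on libraries without siFN, 21 of 27 were called higher. Dnajc9, a histone chaperone, rose by 2.25.

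Regulators of the G1 phase and chromatin proteins of dividing cells were also higher. Ccnd1, the cyclin that couples growth signals to the cycle, had an FPKM of 3.24 and 2.75 on SFM matrix and 8.18 and 7.56 on TCM matrix (1.15 ± 0.22). Foxm1, a factor that drives mitosis genes, had 1.47 and 2.09 against 6.61 and 6.81, and E2f1, a factor of S phase genes, 0.593 and 0.901 against 2.21 and 2.30. The inhibitors of cyclin D kinases Cdkn2d (1.04) and Cdkn2c (0.96) rose with them. Of 11 tested members, 6 were called higher and none lower (median 0.85). E2f1 reached the filter only through TCM, and with the filter on libraries without siFN 6 of 12 were called higher. In the list of HMG proteins and chromatin factors, 7 of 16 were called higher and 1 lower, 5 of the 16 having reached the filter only through TCM. With the filter on libraries without siFN the count was 8 of 17 higher and 1 lower, and without the GC trend 7 of 16 and 0. Hmgb2, an architectural chromatin protein, stood at 3.93 and 2.24 against 20.7 and 21.7, and the ATPase Atad2 at 0.554 and 0.107 against 3.49 and 3.49. Ezh2, the methylase of histone H3 in Polycomb repression, rose by 0.94 and Hmgb3 by 1.21. For Dek, with a GC content of 39.2%, the difference was 1.19 and became 0.71 without the GC trend, still past the test. Of the 26 genes of homologous recombination and crosslink repair, 25 were higher in both pairs and only Ddias (1.46) and Topbp1 (1.08) reached the filter, both called higher and both tested only through their TCM levels. With genes chosen by the libraries without siFN, 3 were tested and 3 called higher (median 1.08).

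Among p53 targets the largest change was that of Ccng1, cyclin G1, on chromosome 11 (40748552 to 40755311). Its FPKM was 27.4 and 7.29 on SFM matrix, against 68.2 and 69.3 on TCM matrix. The SFM libraries differed from each other here, so the pairs gave 1.29 and 3.08. The mean difference was 2.18 ± 0.56 (adjusted p = 0.0460). The call was lost with a pseudocount of 0.1 (adjusted p = 0.0554) and with median scaling (0.0528), and without SFM siKLF4-siFN the difference was 1.12 (0.154). Trp53inp1, a p53-induced stress protein, had 15.5 and 7.81 against 36.8 and 36.1 (1.64 ± 0.37). Mdm2, the ligase that limits p53, rose by 0.88 and the repair nuclease Ercc5 by 0.94. Ercc5 reached the filter only through TCM. Sesn2, which the stress factor ATF4 also induces, fell by 0.51, a call lost without the GC trend (-0.31, adjusted p = 0.174). In all, 5 of 17 tested members were called higher and 1 lower, against 8.18% and 8.96% of all genes tested. The fifth of those higher was Cdkn1a (0.85), the p21 inhibitor of the cell cycle.

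Receptors and cell state genes of melanoma were higher in TCM. Mc1r, the melanocortin receptor that drives pigment synthesis, had an FPKM of 3.96 and 6.65 in the SFM libraries and of 20.5 and 22.3 in the TCM libraries (1.86 ± 0.34, adjusted p = 0.0279). The receptors Met and Erbb3 stood at 2.63 and 1.72 against 4.57 and 4.49, and at 2.28 and 3.79 against 5.23 and 5.49. Dlx6, a homeobox factor, rose by 1 but reached the filter only through TCM. Of 7 tested lineage regulators, 4 were called higher and none lower. With the filter on libraries without siFN, 5 of 8 were called higher. The pigment enzymes and melanosome proteins did not follow as a group: 1 of 12 tested members was called, Tyr, the tyrosinase gene, with 1.48 and 1.32 against 2.78 and 2.70. This difference of 0.64 became -0.05 when the GC trend was removed, at a GC content of 35.2%. Dct, a melanin enzyme, had 35.3 in SFM siFN but 69.3 in SFM siKLF4-siFN, against 85.6 and 88.7, and was not called (adjusted p = 0.0797). Its difference of 0.80 became 0.43 without the GC trend (adjusted p = 0.419). Genes of melanosome transport along the cytoskeleton included Kif5b, a kinesin (1.60), Myo5a, the myosin that carries melanosomes (0.83), and Rab27a, a GTPase on the melanosome (0.55), the 3 called of 6 tested. Myo5a and Rab27a reached the filter only through TCM, and neither was called with a pseudocount of 0.1 (adjusted p = 0.0573 and 0.0555). Mlph, the adaptor between them, was not called (adjusted p = 0.0852), but was without the GC trend (0.86, adjusted p = 0.0337). For Kif5b the values were 2.48 and 0.519 against 5.81 and 6.15, so the SFM libraries again differed.

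Nes, the intermediate filament nestin, on TCM matrix had an FPKM of 16.5 and 16.8, above 3.14 and 5.80 on SFM matrix (1.73 ± 0.19, adjusted p = 0.0217). Vim, vimentin, had 109 and 112 against 205 and 225. Sox9, a neural crest factor, rose by 1.19 and Anxa1, an annexin, by 0.83. Cd44, a receptor for hyaluronan, rose by 0.57, a call lost without the GC trend (0.38, adjusted p = 0.0822). These belong to the invasive and mesenchymal state list, in which 6 of 7 tested members were called higher and none lower, while 18 of its 25 genes were too low to test. Over all 25 genes, 12 were higher in both pairs, 3 lower and 10 neither, with a median difference of 0.04. Phlda1, a feedback gene of growth factor signalling, rose by 0.77. With Met and Ccnd1 it made 3 of 8 members of the ERK feedback list called higher.

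Genes that read out adhesion moved in both directions. Zyx, the focal adhesion protein zyxin, had an FPKM of 57.6 and 68.2 in the SFM libraries and 28.6 and 27.5 in the TCM libraries (-1.13 ± 0.21, adjusted p = 0.0289). Of 11 integrins, syndecans and adhesion proteins tested, Zyx was the only gene called lower and Cd44 the only gene called higher. These counts are near the shares over all genes tested, 8.96% and 8.18%. Itgav, a chain of fibronectin-binding integrins, had 1.05 and 0.616 against 1.54 and 1.55 and narrowly missed the threshold (adjusted p = 0.0519). Its difference of 0.48 became 0.24 without the GC trend (adjusted p = 0.0877). Ctgf, a target of YAP, had 1.70 and 1.35 against 3.01 and 3.34. The tropomyosins Tpm4 and Tpm1, which stabilise actin filaments, rose by 0.90 and 0.78. Ajuba, a LIM protein of cell junctions, had a difference of -0.52 that lost its call without the GC trend (-0.32, adjusted p = 0.0631). Plaur, the urokinase receptor, fell by 0.89, while the protease Adamts1 (0.70) and the matrix protein Sparc (0.54) rose. Plaur reached the filter only through SFM. In the immediate early list 1 of 18 tested genes was called, Klf2, with a difference of -0.90 that was not called without the GC trend (adjusted p = 0.0579).

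Interferon-induced genes had large but uneven differences. Cxcl10, a chemokine, had an FPKM of 15.0 and 3.82 on SFM matrix, against 50.8 and 51.2 on TCM matrix. The SFM libraries differed from each other, as did TCM siNT (7.5) and TCM siKLF4 (53), which also enter the spread. Cxcl10 was not called (2.57 ± 0.87, adjusted p = 0.0813). Ifit2, an antiviral protein, had 1.31 and 0.430 against 3.16 and 3.04 and was called (adjusted p = 0.0349). Ifit2 reached the filter only through TCM. Rsad2, Ifit3 and Isg15 were not called (adjusted p = 0.0695, 0.0544 and 0.180). Of the 34 interferon and chemokine genes, 29 were higher in both pairs and none lower in both, but 7 were tested and 1 called. The share of 35.3% higher in both pairs covers tested genes only. With the filter on libraries without siFN, 2 of 8 were called higher. B2m, the light chain of class I MHC, had 14.8 and 12.5 against 24.6 and 26.9, and its difference of 0.87 became 0.50 and lost its call without the GC trend (adjusted p = 0.109). H2-Q4 (0.60), another class I chain, was also higher but reached the filter only through TCM. H2-K1 and H2-D1, the classical class I chains, were not called.

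**Figure D3:**
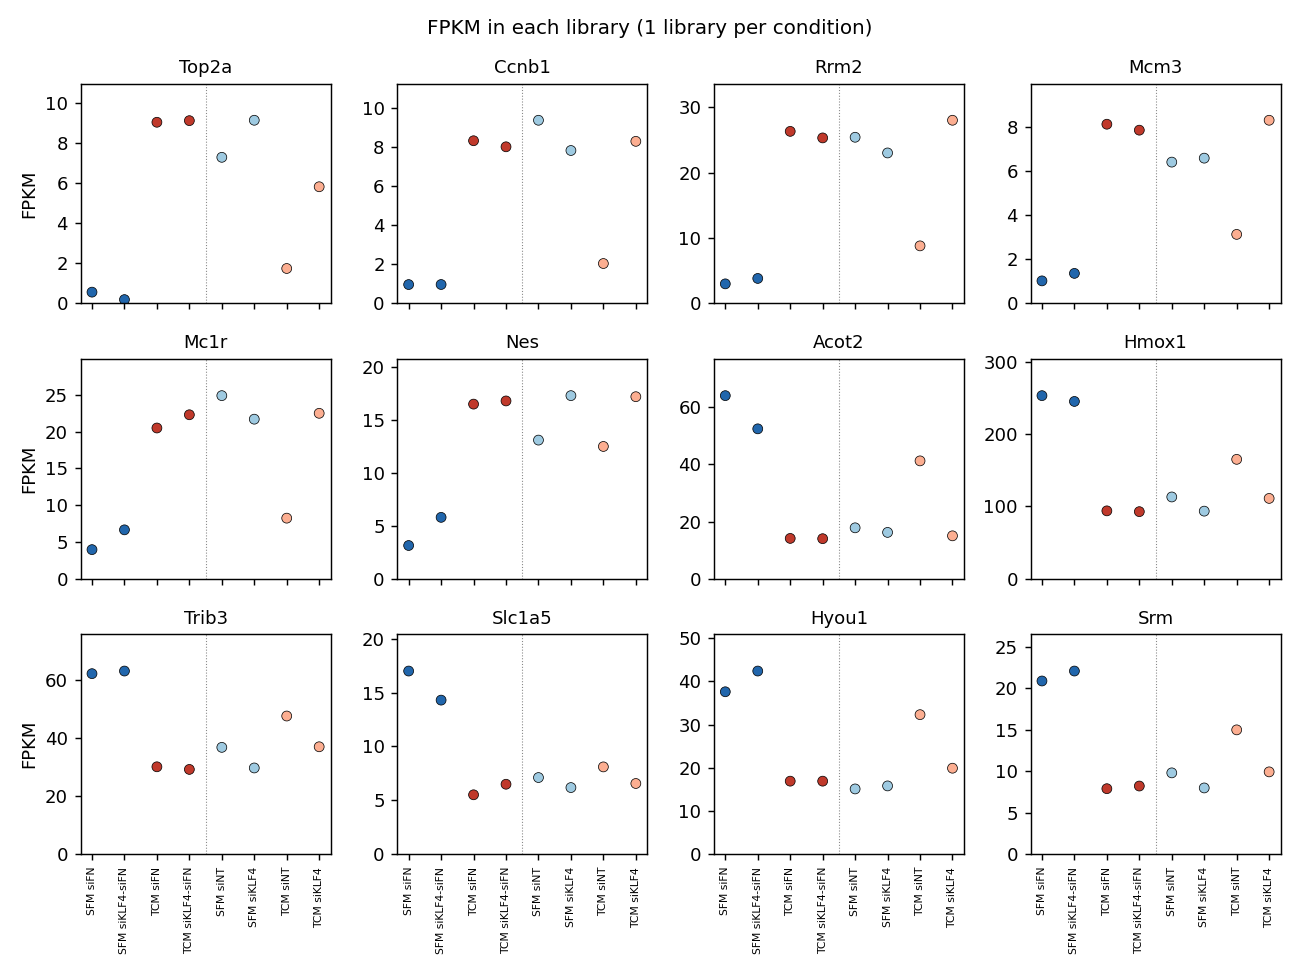
The y axis of each panel gives the FPKM of 1 gene from 0, and the points are the 8 libraries, 1 per condition, with SFM siFN libraries in dark blue, TCM siFN libraries in dark red and the libraries without siFN in pale colors right of the dotted line. Top2a, Ccnb1, Rrm2, Mcm3, Mc1r and Nes are lowest in the 2 SFM siFN libraries, and Acot2, Hmox1, Trib3, Slc1a5, Hyou1 and Srm are highest there.

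Lower in TCM were genes of amino acid supply. Slc1a5, a glutamine transporter, had an FPKM of 17.0 and 14.3 in the SFM libraries and 5.51 and 6.49 in the TCM libraries (-1.25 ± 0.16, adjusted p = 0.0242). Pycr1, the proline enzyme whose promoter is shown above, had 5.20 and 4.39 against 1.44 and 1.77, and Slc6a9, a glycine transporter, 4.33 and 4.11 against 1.88 and 1.74. The SFM libraries were higher without overlap, as for 36.4% of all genes tested. Slc3a2, the shared chain of several amino acid transporters, fell by 0.73 and Got1, an aspartate transaminase, by 0.65. Of 17 tested members 9 were called lower and none higher (median -0.50). Without the GC trend 6 were called lower and the median was -0.36.

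Stress response genes under ATF4 and CHOP showed the same direction. Trib3, a pseudokinase induced by both factors, had an FPKM of 62.2 and 63.1 in the SFM libraries and 30.1 and 29.2 in the TCM libraries (-1.06 ± 0.16). Ppp1r15a, which restarts translation after stress, had 142 and 179 against 81.4 and 75.6 (-1.02 ± 0.20). Cth, an enzyme of cysteine synthesis, fell by 0.62. Chac1, which breaks down glutathione, had a difference of -0.70 that lost its call without the GC trend (-0.50, adjusted p = 0.0609). Of 16 tested members 6 were called lower and none higher, with a median of -0.53, which became -0.35 with 4 called lower and 1 higher without the GC trend. The tRNA synthetases were mostly not called: Wars (-0.94), Vars (-0.76) and Gars (-0.64) fell, and 17 of 20 did not pass. In the list of chaperones of the endoplasmic reticulum, Hyou1 had 37.6 and 42.4 against 16.9 and 16.9, and Xbp1, a factor of the unfolded protein response, 28.2 and 30.6 against 15.7 and 15.7. Both fell, and the other 18 of 20 tested members did not pass. Over all genes tested 8.96% were called lower, which is near the share in the chaperone list.

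Genes of lipid and redox metabolism were among those lower in TCM. Acot2, a thioesterase of mitochondrial fatty acyl-CoA, had an FPKM of 64.0 and 52.4 in the SFM libraries and 14.1 and 14 in the TCM libraries, a mean 4.14 times lower (-1.97 ± 0.33). Plin2, which coats lipid droplets, had 20.9 and 31.8 against 7.81 and 7.77 (-1.61 ± 0.37). Ech1, an enzyme of unsaturated fatty acid oxidation, had 10.3 and 10.5 against 2.36 and 2.98. In the other direction Fabp5, a fatty acid carrier, had 19.5 and 20 against 54.4 and 60.2 (1.49 ± 0.27). Of 14 tested genes on the list of lipid droplets and fatty acid oxidation, which does not include Ech1, 4 were called lower and 2 higher. Hmox1, heme oxygenase, had 253 and 245 against 93.8 and 92.7 (-1.41 ± 0.18). Mt2, a metallothionein, had 194 and 111 against 56.5 and 51.8, and Ftl1, ferritin light chain, 1540 and 1506 against 811 and 807. Srxn1, a sulfiredoxin, had a difference of -1 with an adjusted p of 0.0409 and of 0.0501 without the GC trend. Of 20 NRF2 targets tested, 4 were called lower and none higher. The shares over all genes tested were 8.96% lower and 8.18% higher.

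Of 9 tested polyamine genes, 3 were called lower, 1 higher and 5 not at all. Odc1, the first enzyme of synthesis, had an FPKM of 63.8 and 62.0 in the SFM libraries and 30.2 and 30.5 in the TCM libraries, and Srm, spermidine synthase, 20.9 and 22.1 against 7.90 and 8.22. Both fell, by 1.03 and 1.31. Sat1, which acetylates polyamines for export and breakdown, rose by 1.24, from 15.5 and 19.5 to 40.6 and 44.2. The remaining call was Slc3a2, named above.

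Cdsn, corneodesmosin, an adhesion protein of cornified skin, had the largest decrease among called protein-coding genes that reached an FPKM of 5 in both SFM libraries. It stood at 9.29 and 6.87 on SFM matrix and at 0.458 and 0.747 on TCM matrix, 13.4 times lower in the mean (-2.49 ± 0.23, adjusted p = 0.0217). Cdsn reached the filter only through SFM. Chchd10, a mitochondrial protein, had 56.4 and 48.5 against 14.7 and 12. Gsto1, an omega class glutathione transferase, had 13.4 and 7.22 against 1.98 and 2.29, and Cyb5r1, a cytochrome b5 reductase, 43.1 and 46.7 against 12.8 and 13.4. The TCM libraries were the lower ones in each case. Krtcap2, a subunit of the oligosaccharyltransferase, fell by 1.68, Tmem150a by 1.58 and Angptl6, an angiopoietin-like protein, by 1.57. Among the increases, Ckb, brain creatine kinase, went from 5.35 and 12 to 39.5 and 40.0.

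The respiratory chain, ribosome and proteasome lists had medians of -0.21 to -0.05, against -0.02 over all genes tested. Over all genes tested 8.18% were called higher and 8.96% lower. Of 70 respiratory chain and ATP synthase genes, 2 were called higher and 2 lower (median -0.05). Cox6a2, the heart and muscle form of a cytochrome oxidase subunit, was the exception in size, with an FPKM of 4.34 and 5.28 against 0.166 and 0.487 (-2.14 ± 0.18, adjusted p = 0.0217). Cox6a2 reached the filter only through SFM. With the filter on libraries without siFN, 69 genes of this list were tested, 2 called higher and 1 lower. Uqcrh, of complex III, rose by 0.81. Of 76 cytosolic ribosomal proteins 9 were called lower and none higher (median -0.21), led by Rps12 (-1.31), whose reads may be shared with its pseudogenes. In both pairs 44 of the 76 were lower and 9 higher, against 39.6% and 35.3% of all genes tested. Mitochondrial ribosomal proteins gave 3 higher and 6 lower of 62, among them Mrps18b (-1.22) and Mrpl18 (1.07). Of 30 proteasome subunits, Psmb5 (-0.77) and Psmb3 (-0.54) were called lower. Lysosome and autophagy genes leaned lower, with 7 of 34 called lower and none higher (median -0.39). Ctsl, a lysosomal protease, had 88.2 and 108 against 49.8 and 51.7, and Gaa, the lysosomal glucosidase, fell by 0.79. Among genes of sterol and fatty acid synthesis, Pmvk, a kinase of the mevalonate pathway, was called higher (1.15) and Sqle, squalene epoxidase, lower (-0.54). In the glycolysis and hypoxia list, Pdk1 (0.54), Ankrd37 (0.68) and Bnip3 (0.67) were called higher and Ndrg1 (-0.67) and P4ha2 (-0.53) lower, of 22 tested. Bnip3 was not called without the GC trend (0.33, adjusted p = 0.228). Of 14 splicing factors and their kinases, Clk1 (1.12) and Clk4 (0.55) were called, which became 0.65 and 0.05 without the GC trend, the latter no longer called (adjusted p = 0.828). The median of the list went from 0.43 to 0.14.

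**Figure D4:**
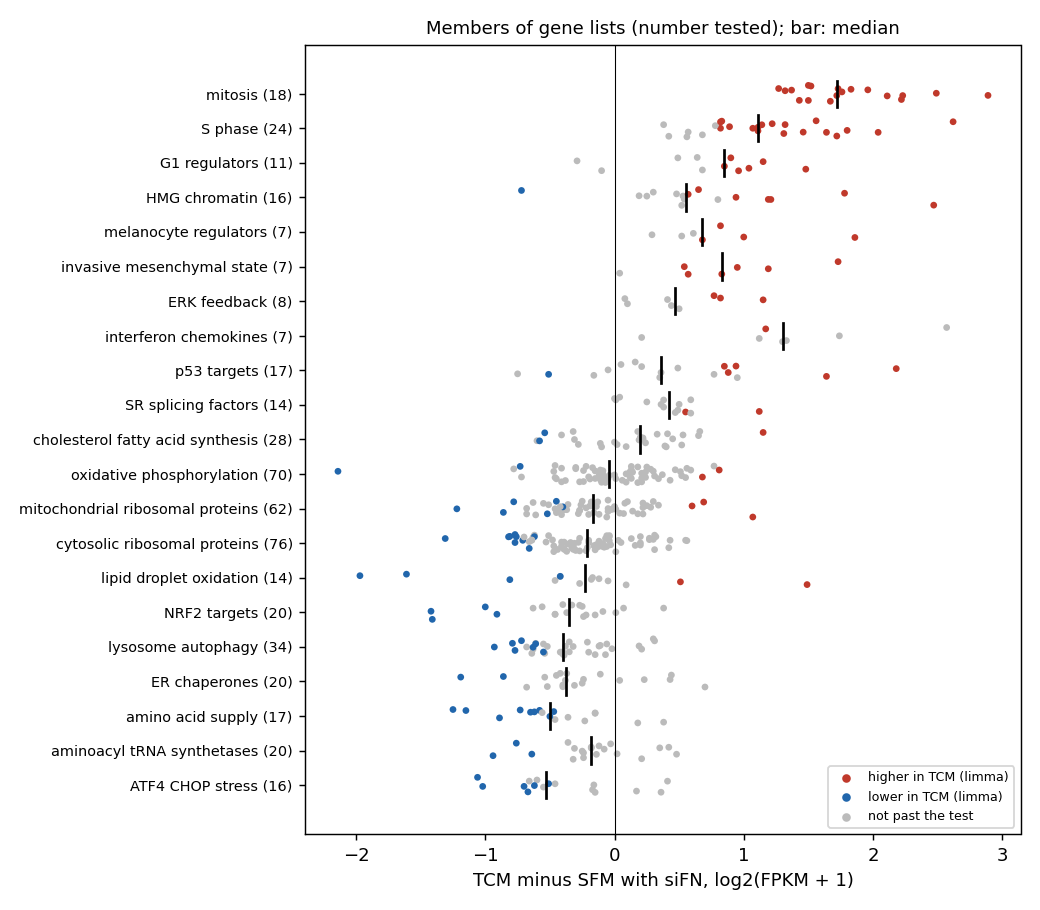
Each point is a tested gene of a list, placed on the x axis by its TCM minus SFM difference with siFN in log2(FPKM + 1), colored by the limma call, with the median as a black bar and the number tested in brackets. The mitosis list lies wholly above 1, with a median of 1.72, and amino acid supply and ATF4 and CHOP stress have medians of -0.50 and -0.53.

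To see where these differences set the siFN libraries apart, the medium by siFN interaction was tested: it asks whether the TCM minus SFM difference with siFN differs from that without it. limma called 482 genes (7.03%). Of these, 244 had a TCM minus SFM difference that was higher with siFN than without (3.56%), and 238 one that was lower (3.47%). The difference was higher with siFN in 16 of 18 tested mitosis genes, and in 13 of 24 S phase genes, sets that the filter drew in part by their level in TCM with siFN. With genes chosen by the libraries without siFN the counts were 18 of 20 and 14 of 27. The difference was also higher with siFN in 5 of 11 G1 regulators, 3 of 7 lineage regulators and 4 of 7 invasive state genes. Chosen by the libraries without siFN, these were 5 of 12, 3 of 8 and 4 of 8. The difference was lower with siFN in 4 of 17 genes of amino acid supply, 3 of 16 of the ATF4 and CHOP list and 3 of 9 polyamine genes. Slc3a2 is counted in both amino acid supply and polyamine genes. For 1 polyamine gene, Sat1, the difference was higher with siFN (1.05). No cytosolic ribosomal protein passed. Without siFN the median TCM minus SFM difference was -0.62 for the tested mitosis genes and 0.16 for amino acid supply, opposite in sign to those with siFN. For mitosis the siNT pair carried this, with a median of -1.23 against 0.06 in the siKLF4 pair, while amino acid supply had 0.24 and 0.12. The interaction count became 0 when any of the 3 SFM libraries other than SFM siFN, or either TCM library with siFN, was left out. Leaving out TCM siNT gave 47 and leaving out SFM siFN 2051. With a pseudocount of 0.1 it was 0, and with libraries scaled to their medians 1.

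The libraries without siFN, 1 per condition, give levels to set beside those with it. On which side the difference arose was not tested. Top2a had an FPKM of 7.29 with siNT and 9.14 with siKLF4 on SFM matrix, and of 1.74 and 5.82 on TCM matrix. Set against siNT, Top2a with siFN alone was lower on SFM matrix (7.29 and 0.559) and higher on TCM matrix (1.74 and 9.04). The TCM libraries with siFN (9.04 and 9.12) lay near the SFM libraries without it, and the SFM libraries with siFN (0.559 and 0.187) below all others. Acot2 mirrored this, with 17.8 in SFM siNT and 16.2 in SFM siKLF4 beside 14.1 and 14 in the TCM libraries with siFN. TCM siNT, at 41.2, lay nearer the SFM libraries with siFN, at 64.0 and 52.4. As the mean of gene-centred log2 levels, the mitosis list stood at -1.22 and -1.21 in the SFM libraries with siFN, at 0.58 and 0.60 in the TCM libraries with siFN, and, with siNT and siKLF4, at 0.64 and 0.59 on SFM matrix and -0.59 and 0.60 on TCM matrix. Amino acid supply stood at 0.26 and 0.30, at -0.22 and -0.19, and at -0.09, -0.14, 0.12 and -0.05 in the same order. For the interferon list the SFM libraries with siFN differed, at -0.30 and -1.29, against 0.55 and 0.56 in TCM.

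**Figure D5:**
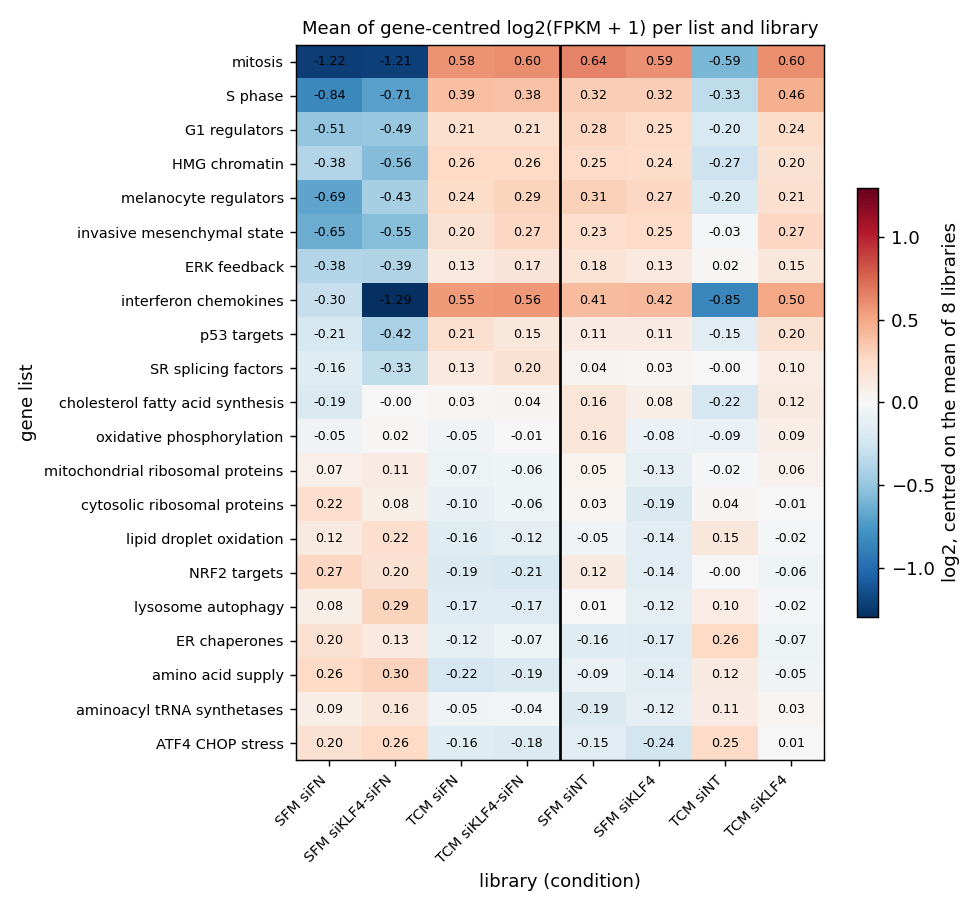
Cells give the mean over a list's tested genes of log2(FPKM + 1), centred per gene on the 8 libraries, with lists as rows and libraries as columns; red is above 0 and blue below, and the 4 siFN libraries stand left of the black line. The mitosis row is at -1.22 and -1.21 in the SFM siFN libraries and at 0.58 and 0.60 in the TCM siFN libraries.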

How the data were processed

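The authors deposited FPKM values for 46477 gene rows in 8 libraries. STAR 2.4.1d, Partek and the build mm10 are named per the submitters' processing notes. The sources used here do not give the counting rule, annotation or strand setting. Symbols were matched to GENCODE M21 (GRCm38, the assembly of mm10; 94.9% of 6861 tested genes), which also gave coordinates and GC content. The table has 27 rows with date-like names, 13 of them tested, kept unnamed.

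For genes averaging an FPKM of 1 or more in the 4 siFN libraries, log2(FPKM + 1) was fitted with limma 3.58.1 (R 4.3.3, variance trend, two-sided, Benjamini-Hochberg at 0.05) in all 8 libraries, with medium, siFN, their interaction and siKLF4 as terms. The script was tested on simulated data. Depth was estimated from FPKM steps in single-transcript genes over 600 nucleotides, where 32.4% to 36.2% of low values in the siFN libraries lay within 0.05 read of a whole number, so depths are approximate; at an FPKM of 1 a 2 kb gene has 25.8 to 42.2 reads, a counting error of 15.4% to 19.7%.

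Named genes are the 12 largest differences in each direction among called, officially named protein-coding genes that reach an FPKM of 5 in both libraries of the higher side, up to 5 members of each list with the smallest p, called members of a list with under 6 of them, Klf4 and Fn1. Members and lists were chosen with earlier results of these data known. Alternatives changed the pseudocount, filter, scaling, variance model, samples in the fit and genes tested. The result for 1 member of a list is not reported here.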

Additional observations from a re-analysis of the deposited data

Results flagged for a closer look

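The TCM minus SFM difference with siFN differed from that without siFN in 482 genes by limma's interaction test. Among protein-coding genes that also passed the main comparison, those with the smallest interaction p-values are named here by direction. Where the difference was higher with siFN, they were Ddias (2.75), Atad2 (2.90) and Dlx6 (1.73). Where it was lower, they were Cox6a2 (-2.52), Nat8 (-1.81) and Ifrd2 (-1.65). Ddias, Atad2 and Dlx6 reached the filter only through TCM with siFN, and Cox6a2 only through SFM with siFN.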

How the results depend on the processing

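The labels carry no replicate numbers. The paired fit, with siKLF4 beside medium as a term in the 4 libraries and 1 residual degree of freedom, gave the 995 calls above. Counts are given as genes higher, then lower. For the main comparison limma called 12 and 3 with no filter (5021 at an unadjusted p under 0.05), 271 and 374 at a mean FPKM of 5 or more, 348 and 396 with medium alone in 4 libraries, and 0 and 0 (1514 unadjusted) with the TCM siFN libraries averaged. For the interaction it called 0 and 0 (2269 unadjusted) with a pseudocount of 0.1, 8 and 1 with no filter, 90 higher at a mean FPKM of 5 or more, 1 and 0 with median scaling, 368 lower with quantile normalization, 489 and 522 in protein-coding genes, and 0 and 0 (1447 unadjusted) with the libraries averaged. A difference of 1 in both pairs held for 229 and 150 genes with a pseudocount of 0.1, 60 and 42 at a mean FPKM of 5 or more, and 36 lower in protein-coding genes. Leaving out single libraries gave 0 to 1173 higher and 0 to 1062 lower, and for the interaction 0 to 1039 and 0 to 1012. List medians ranged over these from -0.10 to 0.29 for glycolysis and hypoxia, -0.08 to 0.23 for melanin and melanosomes and -0.39 to 0.14 for smooth muscle markers, the last also 0.02 with no filter. Tyr turned to -0.05 without the GC trend. The cause was not tested. Counting error, 15.4% to 19.7% at an FPKM of 1, limits the low genes.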
